A study of Homo sapiens with 16 samples.

Results

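The comparison described here is that of A375 tumors given the BET inhibitor JQ1 alone with tumors given vehicle, across all genes that reached an FPKM of 1 in 4 or more of the 8 tumors. FPKM are read fragments scaled to the length of the transcript and to the mapped fragments of the library. The filter kept 12848 of the 23260 gene symbols in the deposited table. A375 is a human melanoma line with mutant BRAF. Its cells were grown under the skin of both flanks of NOG mice (NOD/Scid/IL2γR-/-), which lack most lymphoid cells. JQ1 tumors 26L, 26R, 29L and 29R came from mice 26 and 29, which received JQ1 at 50 mg/kg daily into the peritoneum. Control tumors 2L, 2R, 5L and 5R came from mice 2 and 5, which received vehicle. L and R name the flank, so each group held 4 tumors from 2 mice. All tumors came from 1 cell line, and RNA was taken on day 5 of treatment. The other 2 groups, of 4 tumors each, received Vemurafenib, a BRAF inhibitor, at 25 mg/kg per dose, alone or with JQ1. They entered the fit and are cited only beside the JQ1 values. Values written with ± are the mean and SD of 4 tumors. Both tumors of a mouse share a host, which entered the fit as a random block. The fitted correlation within mice was -0.0685, so the block did not widen the errors. At an unadjusted p below 0.05 (limma) 1093 genes stood with it and 939 without it. The p-values and intervals therefore treat the tumors nearly as independent. They measure only the spread between these tumors and not that between mice. The sources used here do not give the age of the mice.

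BET proteins bind acetylated lysines of histones through paired bromodomains. They bring the elongation kinase P-TEFb, made of CDK9 and a cyclin T, to promoters and enhancers, where this kinase releases paused RNA polymerase II. JQ1 fills the bromodomain pocket and displaces these proteins from chromatin. In cultured cells, genes near large enhancers are often the most sensitive, and HEXIM1, which holds P-TEFb inactive, is a widely used marker of the response.

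FPKM do not show how many reads lie behind them. The sum of all FPKM was 970443 to 1281006 in control and 1191325 to 1287101 in JQ1 tumors. Small nucleolar RNAs took 36.5 to 47.1% of that sum in control and 47.3 to 51.1% in JQ1 tumors. Control tumor 5R stood apart. Its median correlation with tumors of its own group was 0.934, against 0.951 for the other control tumors and 0.964 to 0.968 for JQ1 tumors. Calls that change without 5R are given beside the genes they touch. These are bulk values, so fewer cells of a type and less RNA per cell cannot be told apart. The A375 tumors expressed the neural crest and melanocyte factors SOX10 (12.2 ± 3.70 FPKM in control and 12.5 ± 1.35 FPKM in JQ1 tumors) and MITF (8.27 ± 0.929 FPKM in control and 9.30 ± 0.700 FPKM in JQ1 tumors). Of 22 melanocyte lineage genes, 10 passed the filter. The pigment enzyme gene TYR stood at or below 0.279 FPKM and DCT at 0 in every one of the 8 tumors, so these pigment markers were at or near 0.

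No gene passed an adjusted p below 0.05 between JQ1 and control tumors (limma, Benjamini-Hochberg adjusted over 12848 genes; percent called 0). The smallest adjusted p was 0.130, for MRPS30, a gene of the mitochondrial ribosome that is named for that rank after its values were seen (70.7 FPKM in control and 51.0 in JQ1 tumors on average, log2 difference -0.47). Without control tumor 5R its adjusted p was 0.0131 in limma. With the thresholds of the study's methods (FDR under 0.1, p under 0.01 and more than a 2-fold difference) 0 genes passed in this limma fit of FPKM as well. The study applied them to read counts in another test (DESeq). It reported genes changed in JQ1 tumors as well as in those given both drugs. At an unadjusted p below 0.05 there were 1093 genes. Of these, 791 were higher (6.16% of the genes tested) and 302 lower (2.35%) in JQ1 tumors. All 4 JQ1 tumors lay above all 4 control tumors for 423 genes (3.29%) and below them for 220 (1.71%). The median log2 difference was 0.03, and 59.5% of genes were above 0. Differences were small: the 5th and 95th percentiles were -0.22 and 0.37 on the log2 scale. Of the 125 genes with a difference of more than 1 on the log2 scale, 94 were short RNAs, and of the other 31, 18 were higher and 13 lower.

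This balance depended on the scale. When each tumor was scaled to a common sum, the median log2 difference moved to -0.10, and 208 genes were higher and 1132 lower at an unadjusted p below 0.05. With quantile normalization 446 were higher and 654 lower, and with upper quartile scaling 612 and 447. Counts of list members below stand beside the shares over all genes, 59.5% above 0, 6.16% higher and 2.35% lower. The call count depended on control tumor 5R. Without it, 106 genes were higher and 7 lower at an adjusted p below 0.05, 1646 and 462 at an unadjusted p, and 26 in all by the thresholds of the study's methods. Leaving out any other single JQ1 or control tumor gave 0 genes past the adjustment. Tumor 5R was singled out after its values were seen, so calls made without it show dependence on 1 tumor and are not evidence for the genes. Without mouse 5 the counts were 67 higher and 16 lower, and without mouse 2 there was 1, the short RNA SNORD90.

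**Figure D1:**
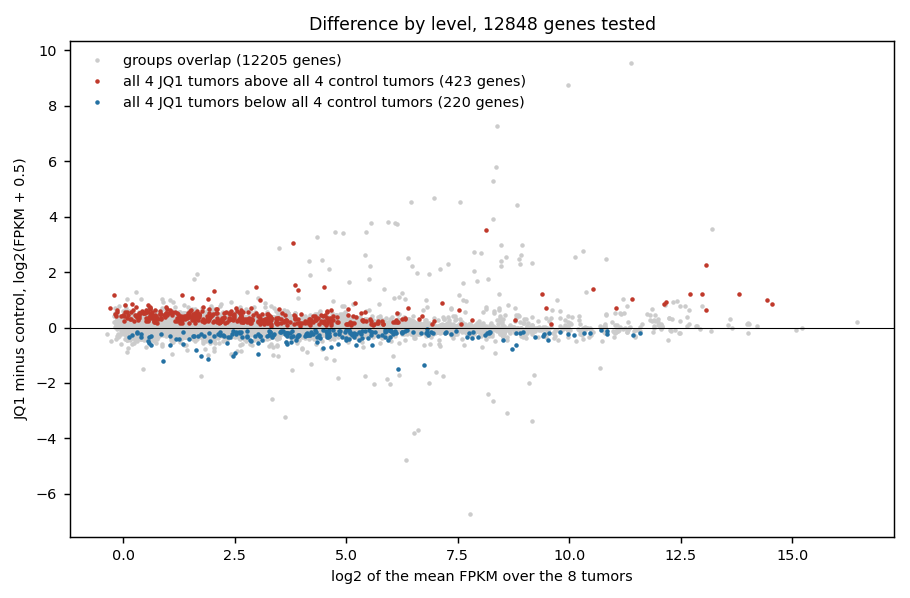
Each point is 1 of the 12848 genes. The horizontal axis is the log2 of the mean FPKM over the 8 tumors and the vertical axis is JQ1 minus control in log2(FPKM + 0.5). The 423 red genes were higher and the 220 blue genes lower in all 4 JQ1 tumors than in all 4 control tumors, and most of both sets lay within 1 log2 unit of 0.

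By level, the 3212 genes with the lowest average (0.778 to 3.63 FPKM) had a median difference of 0.08, with 8.81% higher and 1.62% lower at an unadjusted p below 0.05. In the 3212 genes with the highest average (from 26.8 FPKM) the median was 0.00, with 3.36% higher and 2.83% lower. The filter admitted 13 weak genes through the 4 JQ1 tumors alone, with no control tumor at 1 FPKM, and 0 through the control tumors alone. All 13 were among the higher genes, so no direction is read from the weakest genes. By genomic length, which was found for 85.2% of the genes, protein-coding genes over 84.9 kb were higher in 8.06% and lower in 2.60%. In 3 bins of shorter genes with like numbers, 4.70 to 5.88% were higher and 2.10 to 2.52% lower.

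The BET and P-TEFb genes showed no difference past an unadjusted p below 0.05. BRD2 was at 41.3, 45.5, 39.1 and 51.2 FPKM in control tumors and 36.5, 37.6, 39.2 and 41.6 in JQ1 tumors, a difference of -0.18 (95% interval -0.37 to 0.00). BRD3 differed by 0.04 (95% interval -0.24 to 0.33). CDK9, the P-TEFb kinase, differed by 0.06 (95% interval -0.19 to 0.31). HEXIM1 was at 14.7, 11.3, 9.79 and 13.7 FPKM in control tumors and 13.5, 11.3, 12.1 and 13.7 in JQ1 tumors. All JQ1 values lay within the control range, and the log2 difference was 0.04 (95% interval -0.19 to 0.28), so a change of 1 log2 unit lies outside the interval. SERPINI1, a serine protease inhibitor gene that rises with BET inhibitors in other cells, was at 2.20, 2.49, 2.61 and 3.15 FPKM in control tumors and 3.96, 3.05, 4.18 and 2.97 in JQ1 tumors, a difference of 0.37 (95% interval -0.02 to 0.76). Of 10 tested genes of BET proteins and P-TEFb and 8 known markers of BET inhibition, 0 passed even an unadjusted p below 0.05, and their medians were 0.05 and 0.02. These are transcript levels after 5 days in tumors, and binding of BET proteins was not measured.

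MYC, the transcription factor gene whose loss under BET inhibitors is best known from blood cancers, was at 5.92, 5.71, 4.31 and 5.70 FPKM in control tumors and 4.87, 5.49, 4.61 and 5.47 in JQ1 tumors and overlapped, with a difference of -0.07 (95% interval -0.41 to 0.27). The cyclin gene CCND1 was at 56.7, 68.7, 61.3 and 68.1 FPKM in control tumors and 75.4, 74.9, 70.1 and 76.2 in JQ1 tumors, higher in every JQ1 tumor but with a log2 difference of 0.22, SE 0.13 and adjusted p = 0.702 (limma). The proliferation marker MKI67 differed by -0.16 (95% interval -0.58 to 0.25), the CDK inhibitor gene CDKN1A by 0.00 (95% interval -0.32 to 0.33), CDK6 by 0.01 (95% interval -0.28 to 0.30), the survival gene BCL2 by -0.09 (95% interval -0.38 to 0.20) and the AP-1 gene FOSL1 by 0.02 (95% interval -0.58 to 0.61). For BRD3, HEXIM1, CDK9, CDKN1A, CDK6 and FOSL1, scaling to a common sum turned the sign.

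Of the 12 higher genes named by size, short RNAs apart, 6 encode matrix, secreted or cell surface proteins and are described first. VCAM1, an adhesion molecule of the immunoglobulin family, was at 3.38, 3.32, 9.66 and 17.4 FPKM in control tumors and 20.8, 20.7, 21.5 and 18.2 in JQ1 tumors. All JQ1 tumors were alike, while control values differed between the mice, and 5R came closest (log2 difference 1.53, SE 0.39, adjusted p = 0.237, limma). LUM, a small proteoglycan that binds collagen fibrils, was at 2.32, 2.32, 6.54 and 5.51 FPKM in control tumors and 12.1, 11.1, 13.1 and 9.56 in JQ1 tumors. MGP, matrix Gla protein, an inhibitor of calcification, was at 9.02, 6.30, 11.7 and 25.3 FPKM in control tumors and 30.2, 39.3, 30.8 and 29.7 in JQ1 tumors. For both, the groups did not overlap, and JQ1 means were 2.77 and 2.74 times those of control tumors on the log2(FPKM + 0.5) scale. A2M, a secreted inhibitor of many proteases, was at 6.41, 5.61, 7.24 and 15.2 FPKM in control tumors and 26.3, 16.6, 19.7 and 23.2 in JQ1 tumors (log2 difference 1.36, SE 0.25, adjusted p = 0.162, limma). VCAN, the large proteoglycan versican, was the most abundant of these, at 60.5, 57.1, 57.3 and 77.5 FPKM in control tumors and 97.7, 88.0, 112 and 112 in JQ1 tumors (log2 difference 0.70, SE 0.14, adjusted p = 0.162, limma). CDH19, a cadherin of the neural crest and Schwann cell lineage, was at 34.0, 18.4, 20.9 and 29.1 FPKM in control tumors and 70.7, 36.4, 39.5 and 45.6 in JQ1 tumors. All 6 genes were higher in every JQ1 tumor than in any control tumor. Without control tumor 5R, A2M, VCAM1, LUM, MGP and VCAN passed an adjusted p of 0.05 (0.00370, 0.0140, 0.0263, 0.0140 and 0.0171 in limma). For A2M, VCAM1, MGP and VCAN, 5R was the control tumor nearest the JQ1 values, so leaving it out had to enlarge the difference. Over all alternatives the adjusted p (limma) of VCAM1, LUM, MGP, A2M, VCAN and CDH19 each ranged up to 0.998.

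**Figure D2:**
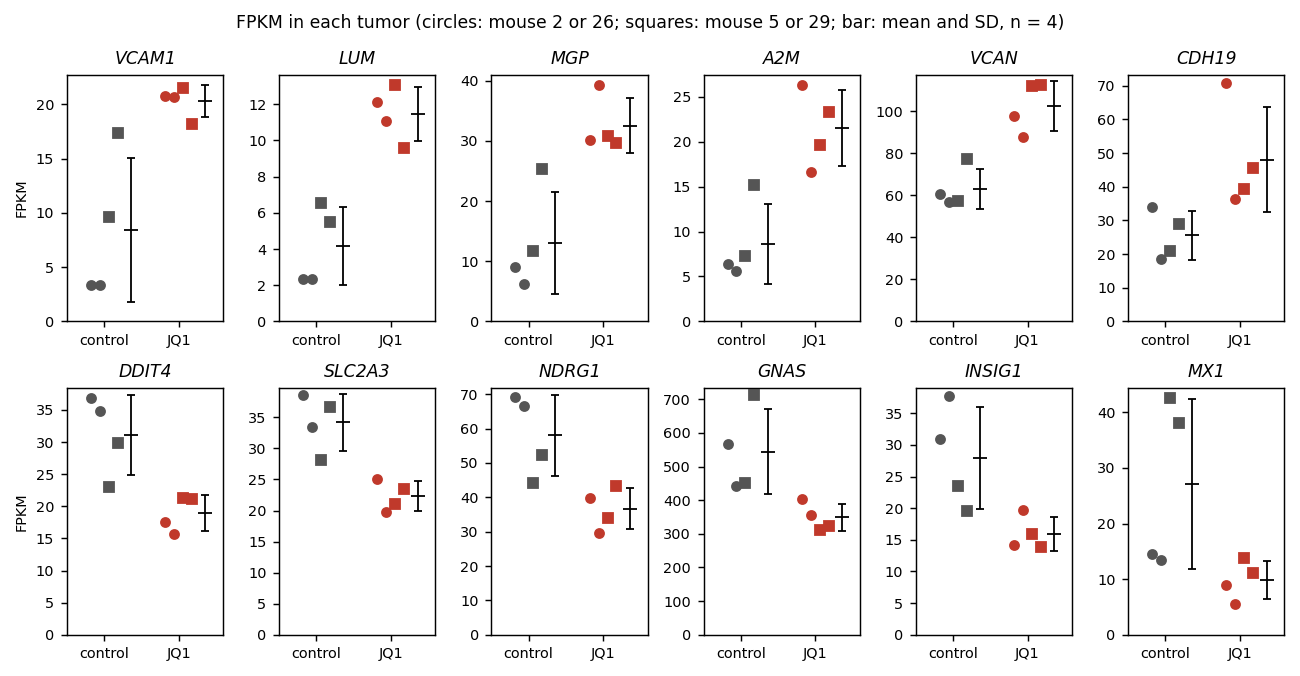
FPKM of 12 genes in each tumor, with control in grey and JQ1 in red, circles for mice 2 and 26, squares for mice 5 and 29, and bars for the mean and SD of 4 tumors. VCAM1, LUM, MGP, A2M, VCAN and CDH19 lay higher in all JQ1 tumors. DDIT4, SLC2A3, NDRG1 and GNAS lay lower in all of them, while INSIG1 and MX1 overlapped.

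Of 39 collagens and matrix proteins tested, 8 were higher and 2 lower at an unadjusted p below 0.05 (6.16% and 2.35% of all genes). The groups did not overlap for 4 higher and 2 lower members (3.29% and 1.71% of all genes). Their median of 0.11 stood against 0.03 for all genes. With tumors scaled to a common sum it was 0.00 against -0.10 for all genes. The higher members included the proteoglycan gene DCN, at 4.47 ± 4.29 FPKM in control and 9.21 ± 2.17 FPKM in JQ1 tumors. COL16A1, a fibril-associated collagen, was at 1.72 ± 0.262 FPKM in control and 2.76 ± 0.505 FPKM in JQ1 tumors, and SPARC, a matrix glycoprotein, at 311 ± 67.0 FPKM in control and 386 ± 45.9 FPKM in JQ1 tumors. The 2 lower members were the chains of the basement membrane collagen. COL4A1 was at 37.3 ± 8.65 FPKM in control and 26.5 ± 1.63 FPKM in JQ1 tumors and COL4A2 at 45.6 ± 15.4 FPKM in control and 31.9 ± 2.57 FPKM in JQ1 tumors, without overlap. Without 2L 4 members were higher, without mouse 5 15, and without 5R 20 with a median of 0.40, and without mouse 2 the median was -0.04. Markers of fibroblasts and pericytes moved with this group: 5 of 11 tested were higher and 0 lower (6.16% and 2.35% of all genes), but 1 was higher without 5L and 1 without mouse 2, with a median of 0.22 that was 0.10 without 5L, 0.47 without 5R and 0.55 without mouse 5. Their summed level was 60.7 to 160 FPKM in control and 94.2 to 112 FPKM in JQ1 tumors, and the highest sum was that of 5R. COL1A1 was at 11.6, 9.21, 7.07 and 31.6 FPKM in control tumors and 9.09, 15.4, 11.97 and 9.17 in JQ1 tumors, and PDGFRB, the receptor that marks pericytes, at 2.37, 2.35, 2.62 and 5.996 FPKM in control tumors and 3.87, 5.29, 5.44 and 5.27 in JQ1 tumors. Without 5R, DCN (0.0450) and PDGFRB (0.0171) passed the adjustment (adjusted p in limma). THY1, another marker of these cells, stayed at or below 0.206 FPKM in all 8. The part of other cells in these differences was not tested.

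Angiogenesis factors were above 0 in 22 of 25 genes tested (59.5% of all genes), with a median of 0.19. At an unadjusted p below 0.05, 5 were higher and 0 lower (6.16% and 2.35% of all genes). Of the 25, 4 were higher without overlap (3.29% of all genes). SEMA3C, a secreted semaphorin, was at 65.0, 47.8, 64.4 and 56.4 FPKM in control tumors and 88.6, 77.1, 80.7 and 85.1 in JQ1 tumors. FGF1, an acidic fibroblast growth factor, was at 4.22, 3.94, 6.03 and 5.62 FPKM in control tumors and 7.12, 6.93, 7.38 and 7.53 in JQ1 tumors. ANGPT1, the ligand that activates the endothelial receptor TIE2, was at 19.9, 16.8, 26.9 and 25.8 FPKM in control tumors and 31.7, 27.1, 31.8 and 28.8 in JQ1 tumors. These 3 were higher in all 4 JQ1 tumors. PDGFD was at 2.16 ± 0.298 FPKM in control and 2.95 ± 0.281 FPKM in JQ1 tumors, and HGF, the ligand of MET, at 7.15 ± 1.87 FPKM in control and 12.8 ± 3.73 FPKM in JQ1 tumors. On the log2 scale SEMA3C, FGF1, ANGPT1 and PDGFD differed by 0.51, 0.52, 0.43 and 0.38, with no overlap, and HGF by 0.79, with overlap. Leaving out 1 tumor at a time gave 4 to 8 higher members of the angiogenesis factors, the most without 5R. With tumors scaled to a common sum, 2 were higher and 1 lower, and their median was 0.07 against -0.10 for all genes.

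Of the receptor tyrosine kinases, 3 of 20 were higher and 1 lower (6.16% and 2.35% of all genes), with a median of 0.19. Higher members numbered 1 without 5L, 1 without mouse 29, 5 without 5R and 6 without mouse 5. The collagen receptor DDR2 was at 16.7, 15.0, 19.96 and 21.3 FPKM in control tumors and 23.4, 25.2, 25.2 and 24.99 in JQ1 tumors and did not overlap (adjusted p = 0.0436 in limma without 5R). Its relative DDR1 was at 7.71 ± 1.97 FPKM in control and 10.1 ± 1.07 FPKM in JQ1 tumors, while FLT1, a VEGF receptor, was lower at 9.06 ± 2.03 FPKM in control and 6.97 ± 0.593 FPKM in JQ1 tumors. Integrins were above 0 in 14 of 15 genes (59.5% of all genes), with a median of 0.18. Their list mean in control tumor 5R, 0.210, lay above those of all 4 JQ1 tumors, 0.127 to 0.207. ITGAV, the alpha-v chain, was the one member past an unadjusted p below 0.05 (6.16% of all genes were higher). It was at 31.7 ± 1.26 FPKM in control and 36.1 ± 1.54 FPKM in JQ1 tumors. Without 5R there were 5 such integrins and without 26R there were 0. Of 27 TGF-beta, BMP and ID genes, 4 were higher and 0 lower (6.16% and 2.35% of all genes), with a median of 0.07. With a common sum that of the TGF-beta, BMP and ID genes was -0.08, and 8 of them were higher without 5R and 2 without 26R. The ligand gene TGFB2 was at 0.781, 0.864, 0.936 and 1.51 FPKM in control tumors and 1.67, 1.92, 2.06 and 2.38 in JQ1 tumors and the receptor gene TGFBR2 at 15.8, 16.9, 17.3 and 16.8 FPKM in control tumors and 19.5, 20.7, 19.0 and 21.2 in JQ1 tumors. Both were higher in every JQ1 tumor. The cadherin CDH11 was at 3.51, 4.23, 5.23 and 6.64 FPKM in control tumors and 6.45, 7.18, 7.68 and 6.86 in JQ1 tumors, with overlap only between 5R and 26L. Without 5R, TGFB2 (0.0171) and CDH11 (0.0450) passed the adjustment (adjusted p in limma). Among control tumors TGFB2 reached 1 FPKM only in 5R, so it owed its place in the test to the JQ1 tumors, where it is high. Its order and its adjusted p are therefore not read as evidence.

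Other genes named by size were higher in all 4 JQ1 tumors. TCF4, a basic helix-loop-helix factor, was at 20.3, 20.4, 25.8 and 34.7 FPKM in control tumors and 38.0, 43.6, 42.1 and 36.3 in JQ1 tumors (adjusted p = 0.0171 in limma without 5R). MALAT1, an abundant nuclear noncoding RNA, was at 586, 473, 616 and 507 FPKM in control tumors and 975, 761, 815 and 972 in JQ1 tumors. RAB27B, a GTPase of vesicle release, was at 8.09, 10.9, 9.85 and 5.61 FPKM in control tumors and 12.3, 15.2, 12.4 and 15.4 in JQ1 tumors. Their groups did not overlap. G0S2, an inhibitor of triglyceride lipase, was at 2.03, 3.22, 2.58 and 0.971 FPKM in control tumors and 7.62, 5.35, 6.66 and 4.44 in JQ1 tumors. The lipid transporter gene ABCA6 differed by 1.05 and DNM3OS, the antisense RNA that hosts microRNAs, by 0.99. The sources used here do not say whether strand was used in the counting. From the same controls, G0S2 differed by -0.66 with Vemurafenib and -0.87 with both drugs, and RAB27B by 0.33 with Vemurafenib and 0.08 with both drugs. The splicing regulator TRA2A, at 30.4, 33.7, 32.2 and 31.4 FPKM in control tumors and 43.0, 38.6, 45.1 and 41.5 in JQ1 tumors, did not overlap either (log2 difference 0.39, SE 0.08, adjusted p = 0.167, limma).

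Most genes of hypoxia and glycolysis stood lower in JQ1 tumors. Of 35 tested, 30 were below 0, 11 were lower and 0 higher at an unadjusted p below 0.05, and 7 did not overlap. Among all genes 2.35% were lower, 1.71% without overlap, and 59.5% stood above 0. Leaving out 1 tumor gave 7 to 11 lower members, and without mouse 29 there were 6. Their median was -0.19, and it was -0.22 to -0.13 when 1 tumor was left out and -0.33 with a common sum. SLC2A3, the glucose transporter GLUT3, was at 38.5, 33.5, 28.1 and 36.7 FPKM in control tumors and 25.1, 19.7, 21.0 and 23.4 in JQ1 tumors (log2 difference -0.60, SE 0.13, adjusted p = 0.202, limma). NDRG1, a stress response gene, was at 69.2, 66.4, 44.2 and 52.2 FPKM in control tumors and 39.8, 29.7, 34.0 and 43.3 in JQ1 tumors. P4HA1, a subunit of the collagen prolyl hydroxylase, was at 79.4, 69.5, 68.4 and 64.3 FPKM in control tumors and 64.0, 52.2, 51.5 and 53.6 in JQ1 tumors. All 3 were lower in every JQ1 tumor. The glycolytic enzyme gene PGK1 was at 231 ± 16.4 FPKM in control and 184 ± 2.91 FPKM in JQ1 tumors, HK2 at 11.3 ± 1.38 FPKM in control and 8.82 ± 0.890 FPKM in JQ1 tumors and LDHA at 478 ± 41.4 FPKM in control and 415 ± 6.78 FPKM in JQ1 tumors, again without overlap. The peptide hormone gene ADM was at 4.8 ± 2.38 FPKM in control and 1.90 ± 0.402 FPKM in JQ1 tumors, and the carbonic anhydrase gene CA9, a common marker of hypoxic tumor cells, at 7.17 ± 2.37 FPKM in control and 3.43 ± 0.909 FPKM in JQ1 tumors.

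Hypoxia-inducible factors bind the core letters ACGTG. These letters stand, on either strand, in the 250 bases before the start of 13 of 30 tested hypoxia and glycolysis genes with a RefSeq promoter (43.3%), of 23.6% of all genes tested and of 18.7% of all promoters. The promoters of 3 lower members are printed because they hold the letters, which are in capitals. Positions are from RefSeq on GRCh38.p14: chr10:73096867-73097116 on the minus strand for P4HA1, chrX:78103998-78104247 on the plus strand for PGK1 and chr11:18394313-18394562 on the plus strand for LDHA.
P4HA1: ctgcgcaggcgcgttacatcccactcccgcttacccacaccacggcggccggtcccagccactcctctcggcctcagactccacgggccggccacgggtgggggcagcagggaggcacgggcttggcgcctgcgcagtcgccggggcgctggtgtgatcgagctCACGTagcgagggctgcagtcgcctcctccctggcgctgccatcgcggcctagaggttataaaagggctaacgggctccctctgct
PGK1: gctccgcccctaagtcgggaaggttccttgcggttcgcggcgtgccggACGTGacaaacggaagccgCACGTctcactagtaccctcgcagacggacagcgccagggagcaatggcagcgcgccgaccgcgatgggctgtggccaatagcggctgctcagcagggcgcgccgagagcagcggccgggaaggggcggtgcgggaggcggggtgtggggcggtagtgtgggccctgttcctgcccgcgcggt
LDHA: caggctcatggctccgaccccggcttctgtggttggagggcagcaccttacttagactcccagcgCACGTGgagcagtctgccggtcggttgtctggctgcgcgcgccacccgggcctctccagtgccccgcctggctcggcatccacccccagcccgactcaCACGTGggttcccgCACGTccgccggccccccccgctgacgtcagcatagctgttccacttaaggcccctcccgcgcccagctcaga
The letters occur once before P4HA1, in 2 places before PGK1 and in 3 before LDHA, where overlapping matches on the opposite strands form longer capitals. A match describes the sequence and is not a measured binding site.

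DDIT4, an inhibitor of mTORC1 that responds to hypoxia and to ATF4, was at 36.9, 34.9, 22.98 and 29.8 FPKM in control tumors and 17.5, 15.7, 21.3 and 21.2 in JQ1 tumors (log2 difference -0.69, SE 0.15, adjusted p = 0.202, limma). Of 29 ATF4 and amino acid genes, 6 were lower and 0 higher (2.35% and 6.16% of all genes), with a median of -0.12. ATF4 itself was at 176 ± 12.5 FPKM in control and 149.9 ± 10.4 FPKM in JQ1 tumors and did not overlap. Of the cystine transporter genes, SLC3A2 was at 27.2 ± 4.08 FPKM in control and 21.8 ± 1.30 FPKM in JQ1 tumors, and SLC7A11 was at 15.1 ± 5.23 FPKM in control and 9.89 ± 1.39 FPKM in JQ1 tumors with overlap. Leaving out 1 tumor gave 1 to 5 lower members of the ATF4 and amino acid genes, the fewest without JQ1 tumor 26R. Of 24 genes of ER chaperones and unfolded protein response, 6 were lower and 1 higher (2.35% and 6.16% of all genes), with a median of -0.09. Among the lower ones, the chaperone gene CANX was at 313 ± 15.0 FPKM in control and 272 ± 16.6 FPKM in JQ1 tumors and CALR at 329 ± 27.6 FPKM in control and 282 ± 23.4 FPKM in JQ1 tumors. EDEM1, which sends misfolded proteins to degradation, was at 44.1 ± 4.03 FPKM in control and 35.2 ± 4.09 FPKM in JQ1 tumors. Without 5R the median was -0.01 with 5 lower and 3 higher, and without JQ1 mouse 29 there was 1 lower.

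Sterol pathway genes, which make and take up cholesterol, were below 0 in 23 of 27 members tested, with a median of -0.20. Of them 5 were lower and 0 higher at an unadjusted p below 0.05 (2.35% and 6.16% of all genes). INSIG1, which retains the sterol sensor SCAP in the ER, was at 30.9, 37.8, 23.5 and 19.5 FPKM in control tumors and 14.2, 19.7, 15.9 and 13.9 in JQ1 tumors. STARD4, a cholesterol carrier, was at 24.9, 24.5, 22.4 and 10.8 FPKM in control tumors and 10.1, 13.9, 11.7 and 10.9 in JQ1 tumors. In both, control tumor 5R lay within the JQ1 range, so leaving it out had to enlarge the difference. Without 5R, STARD4 had an adjusted p of 0.0140 in limma. Leaving out 1 tumor gave 4 to 10 lower members, the most without 5R, and without mouse 2 there were 2.

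Most cell cycle genes stood slightly below 0, but the groups overlapped in the list means. Of the G1/S cell cycle genes 47 of 51, and of the G2/M cell cycle genes 55 of 67, were below 0, both with a median of -0.11 (59.5% of all genes stood above 0). Relative to the control average, the G2/M list mean was -0.316 to 0.231 in control and -0.211 to -0.021 in JQ1 tumors. All JQ1 tumors thus lay within the control range, and control tumor 5R was lowest. The G1/S list mean was -0.154 to 0.177 in control and -0.185 to -0.026 in JQ1 tumors. The counts below 0 are therefore not read as a difference between the groups. At an unadjusted p below 0.05, 3 G1/S genes were lower and 0 higher, and 1 G2/M gene was lower and 1 higher (2.35% of all genes were lower). Without overlap, 2 G1/S and 6 G2/M genes were lower and 0 of either list higher (1.71% of all genes were lower). CCNE1, the cyclin of S phase entry, was at 10.1, 11.2, 10.8 and 13.1 FPKM in control tumors and 9.27, 9.24, 8.23 and 10.1 in JQ1 tumors, and MYBL2, a factor of late cell cycle genes, at 9.40, 10.8, 8.78 and 10.8 FPKM in control tumors and 6.30, 7.91, 7.50 and 7.14 in JQ1 tumors. The median of the G2/M cell cycle genes was -0.25 without 5R and -0.02 without mouse 2. Of 59 replication-dependent histone genes, 3 were lower and 0 higher (2.35% and 6.16% of all genes), with a median of -0.15. Lower members numbered 8 without 2L and 0 without mouse 5. The groups did not overlap for 5 lower and 0 higher histone genes (1.71% and 3.29% of all genes). HIST2H2AC was at 347, 472, 455 and 433 FPKM in control tumors and 265, 335, 338 and 295 in JQ1 tumors. Near-identical histone copies share reads, so single members are uncertain. Ribosomal protein genes, which have processed pseudogene copies, had a median of -0.06, with 0 of 77 past an unadjusted p below 0.05, though 9 were lower without overlap (1.71% of all genes) and 0 higher.

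Interferon response genes had the lowest median of all lists with at least 10 genes tested, -0.48. Of 42 tested, 18 were lower and 0 higher at an unadjusted p below 0.05, and 3 did not overlap (2.35% and 1.71% of all genes were lower). MX1, a GTPase that blocks viruses, was at 14.5, 13.5, 42.5 and 38.0 FPKM in control tumors and 8.87, 5.59, 13.8 and 11.0 in JQ1 tumors. Mouse 5 carried the high values in both tumors, and mouse 2 lay near the JQ1 tumors. IFI27, an interferon-alpha inducible gene, was at 1.55, 3.60, 9.16 and 7.96 FPKM in control tumors and 0.969, 0.436, 2.07 and 1.05 in JQ1 tumors. RSAD2, the antiviral enzyme viperin, was at 2.54, 2.66, 9.58 and 7.13 FPKM in control tumors and 2.04, 1.23, 2.45 and 2.03 in JQ1 tumors, and OAS1, which makes the activator of RNase L, at 7.04, 6.49, 14.1 and 16.2 FPKM in control tumors and 5.39, 3.20, 6.48 and 5.59 in JQ1 tumors. For RSAD2 and OAS1 all JQ1 tumors lay below all control tumors, by a narrow margin over mouse 2. All 42 genes were higher in mouse 5 than in mouse 2. Against mouse 2 alone the median difference was -0.08, with 0 members lower and 5 higher at an unadjusted p below 0.05, and against mouse 5 alone it was -0.82, with 32 lower and 0 higher. Lower members numbered 4 without 5L, 7 without 5R and 1 without mouse 26. The mean over the 42 genes stood at -0.42 in mouse 2 and 0.42 in mouse 5 on the log2 scale, relative to all control tumors, and at -0.64 in mouse 26 and -0.33 in mouse 29. The 2 control mice thus differed by more than mouse 2 and either JQ1 mouse.

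**Figure D3:**
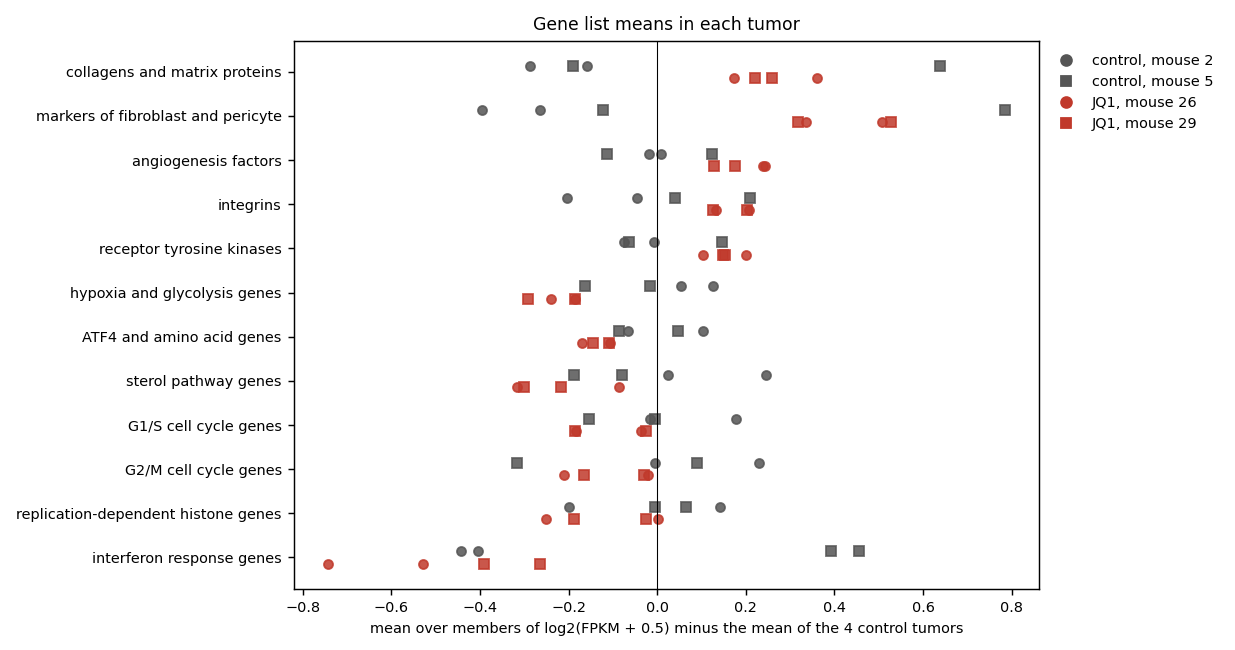
Mean over the members of each list of log2(FPKM + 0.5), relative to the control average, on the horizontal axis, for 12 lists. Grey points are control and red points JQ1 tumors, circles mice 2 and 26 and squares mice 5 and 29. The 2 tumors of mouse 5 stand at 0.46 and 0.39 for interferon response genes and those of mouse 2 at -0.40 and -0.44, while 5R stands alone at 0.64 for collagens and matrix proteins.

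Interferon-activated factors bind repeats of GAAA. The letters GAAA, 2 bases of any kind and GAAA again stand on either strand in the 250 bases before 20 of 34 tested interferon response genes with a RefSeq promoter (58.8%), against 2.59% of all genes tested and 3.07% of all promoters. The promoters of MX1, RSAD2 and OAS1 hold no match there. The promoters of 2 of the lower genes are printed because they hold these letters, which are in capitals. Positions are chr14:94110486-94110735 on the plus strand for IFI27 and chr10:89392373-89392622 on the plus strand for IFIT1 in GRCh38.p14.
IFI27: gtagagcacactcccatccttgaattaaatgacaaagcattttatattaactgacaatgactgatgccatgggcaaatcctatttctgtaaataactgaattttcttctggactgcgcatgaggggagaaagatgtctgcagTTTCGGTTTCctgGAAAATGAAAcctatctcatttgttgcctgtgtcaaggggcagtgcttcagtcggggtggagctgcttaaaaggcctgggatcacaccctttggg
IFIT1: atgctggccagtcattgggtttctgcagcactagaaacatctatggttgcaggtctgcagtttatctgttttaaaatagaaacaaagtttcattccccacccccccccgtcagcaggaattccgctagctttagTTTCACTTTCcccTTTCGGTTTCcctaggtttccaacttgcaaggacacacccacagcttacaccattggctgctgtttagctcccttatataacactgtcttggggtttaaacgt
Each holds 2 matches. IFIT1, which binds viral RNA ends, was at 15.4, 16.8, 60.3 and 39.0 FPKM in control tumors and 12.3, 8.54, 18.3 and 14.7 in JQ1 tumors.

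Single genes lower in all 4 JQ1 tumors came from several classes. GNAS, the stimulatory G protein alpha subunit, was among the most abundant, at 566, 442, 452 and 714 FPKM in control tumors and 403, 357, 312 and 324 in JQ1 tumors (log2 difference -0.62, SE 0.14, adjusted p = 0.209, limma). The 5R value was the highest. TNNT1, slow muscle troponin T, was at 10.1, 9.13, 4.69 and 6.44 FPKM in control tumors and 4.07, 3.16, 3.05 and 3.02 in JQ1 tumors, and UTS2, the peptide urotensin, at 6.81, 5.52, 5.59 and 13.1 FPKM in control tumors and 3.61, 3.59, 3.52 and 3.53 in JQ1 tumors. The sterol transfer gene GRAMD1B was at 25.2, 21.8, 28.7 and 36.8 FPKM in control tumors and 21.1, 16.4, 12.6 and 17.0 in JQ1 tumors and the glycine cleavage gene GLDC at 11.0, 8.85, 7.33 and 12.3 FPKM in control tumors and 7.05, 5.36, 6.54 and 6.92 in JQ1 tumors. HNRNPA1P10, a pseudogene of the HNRNPA1 family, had the largest difference of the named lower genes (log2 difference -1.49, SE 0.34, adjusted p = 0.209, limma), and BAGE4 belongs to a multicopy family (-0.62). Both share sequence with close copies and are uncertain.

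Lineage, MAPK and survival genes showed little. MITF differed by 0.16 and SOX10 by 0.07, and 0 of the 10 melanocyte lineage genes tested passed an unadjusted p below 0.05. Of 26 MAPK output genes, 4 were higher and 0 lower (6.16% and 2.35% of all genes), with a median of 0.05. The transcription factor gene ETV1 was at 38.1, 33.6, 40.0 and 38.2 FPKM in control tumors and 45.5, 43.4, 45.7 and 44.6 in JQ1 tumors. SPRED1, an inhibitor of the RAS pathway, was at 44.1, 41.1, 44.5 and 43.8 FPKM in control tumors and 51.9, 53.5, 49.9 and 47.6 in JQ1 tumors. Both were higher in every JQ1 tumor. The median of MAPK output genes was -0.05 without mouse 2 and -0.09 with a common sum, and 1 to 7 were higher when 1 tumor was left out (7 without 5R). Of 28 p53 target genes, 2 were higher (6.16% of all genes), though 0 were without 5L or without mouse 26. The 2 genes were the kinase gene PLK2 at 30.5 ± 7.60 FPKM in control and 39.0 ± 3.28 FPKM in JQ1 tumors and the RNA-binding gene ZMAT3 at 8.01 ± 0.735 FPKM in control and 9.71 ± 0.753 FPKM in JQ1 tumors. BCL2A1 was the one BCL2 family gene of 12 past an unadjusted p below 0.05 (2.35% of all genes were lower). It was lower, at 11.9 ± 2.87 FPKM in control and 7.29 ± 1.78 FPKM in JQ1 tumors.

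The largest differences of all were in short RNAs, whose FPKM are large because they are scaled to length. Of 130 C/D box small nucleolar RNAs, which guide the methylation of ribosomal RNA, 23 were higher and 3 lower (6.16% and 2.35% of all genes). The groups did not overlap for 12 higher and 0 lower members (3.29% and 1.71% of all genes). The median of the 130 was 0.40. Of 92 H/ACA box small nucleolar RNAs, which guide pseudouridylation, 8 were higher and 3 lower (6.16% and 2.35% of all genes). The median of the 92 was 0.05, and it was -0.10 with a common sum. SNORD29 was at 3849 ± 2664 FPKM in control and 13232 ± 3176 FPKM in JQ1 tumors, SNORD55 at 831 ± 347 FPKM in control and 2126 ± 579 FPKM in JQ1 tumors and SNORD99 at 4898 ± 1293 FPKM in control and 11135 ± 2662 FPKM in JQ1 tumors. These 3 were higher in every JQ1 tumor, and SNORD55 had an adjusted p of 0.0487 in limma without 5R. SNORD42A and SNORD58B had larger fitted differences, but control tumors 2L, 2R and 5L list them at or near 0, so no fold is given. Among control tumors only 5R held a signal, at 1292 FPKM for SNORD42A and 2699 for SNORD58B. Leaving it out had to enlarge the difference, so their pass without 5R is not read as evidence. Leaving out 1 tumor gave a median of the C/D box small nucleolar RNAs of 0.20 (without 5L) to 0.55 (without 5R), with 8 higher members without 5L. Most human small nucleolar RNAs lie in introns of host genes, and whether their reads come from the mature RNA or the intron cannot be told apart here.

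Beside the fibroblast and pericyte markers above, few markers of other cells were detected. The macrophage markers C1QA, C1QB, C1QC and MRC1 stood at 0 in all 8 tumors, and the T cell marker CD3E, the B cell marker MS4A1 and the hemoglobin genes HBA1 and HBA2 did so too. KLRD1, a natural killer cell receptor of the lymphocyte list, was at 7.53, 5.49, 6.81 and 4.16 FPKM in control tumors and 6.26, 6.66, 6.28 and 5.76 in JQ1 tumors. Of 12 endothelial markers 2 passed the filter. ROBO4 was at 0.390, 0.745, 0.457 and 0.432 FPKM in control tumors and 1.11, 1.12, 1.12 and 1.09 in JQ1 tumors, so it passed the filter through the JQ1 tumors alone and had to lie higher in them. The other was ENG, at 4.02 ± 1.33 FPKM in control and 4.73 ± 0.193 FPKM in JQ1 tumors. PECAM1 was at or below 0.454 FPKM and CDH5 at or below 0.0310 FPKM. CD68, a lysosomal protein of macrophages that other cells also make, was at 20.3, 18.2, 16.7 and 20.6 FPKM in control tumors and 25, 25.4, 24.1 and 27.0 in JQ1 tumors. The macrophage markers AIF1 (1.30 to 1.77 FPKM in control and 1.05 to 2.57 in JQ1 tumors) and LYZ (0.264 to 3.82 and 0.565 to 2.62) overlapped, and LYZ did not pass the filter. KRT10, a keratin, was at 4.47, 4.12, 3.77 and 4.58 FPKM in control tumors and 5.54, 6.48, 6.33 and 6.42 in JQ1 tumors with the other keratinocyte markers below 1 FPKM. HBB was at 2.39, 1.48, 2.62 and 4.64 FPKM in control tumors and 0.467, 0.420, 1.46 and 1.32 in JQ1 tumors, so HBB was lower and CD68 and KRT10 higher in all JQ1 tumors. Without 5R, KRT10 had an adjusted p of 0.0262 in limma. The part of such cells in the results above was not tested, and the sources used here do not say whether mouse reads were taken out.

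Against Vemurafenib tumors, 39 genes passed an adjusted p below 0.05 (limma; 0.304% of those tested), 17 higher and 22 lower in JQ1 tumors. Interferon response genes made up 15 of the 22, with 0 of 17 on the other side. MX1 was at 9.82 ± 3.46 FPKM in JQ1 and 48.1 ± 19.0 FPKM in Vemurafenib tumors (SD, n = 4; adjusted p = 0.0293, limma), and RSAD2 at 12.2 ± 5.32 FPKM (SD, n = 4; adjusted p = 0.0267, limma). GNAS was also lower with JQ1 than with Vemurafenib, while CCND1 was higher (adjusted p = 0.0267 and 0.0405, limma). With the mean of each mouse as the sample, 2 genes passed, and without the mouse block 22. The 39 calls depended on each JQ1 tumor: without 26L, 26R or 29R there were 0, and without 29L there were 3. The fit shares its spread with the control tumors, and leaving out one of those gave between 0 (without 5L) and 107 (without 2R). Without mouse 26 there were 0, without mouse 29 there were 2, and without mouse 2 or 5 there were 129 and 90. No Vemurafenib tumor or mouse was left out, so dependence of the 39 calls on those was not tested.

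**Figure D4:**
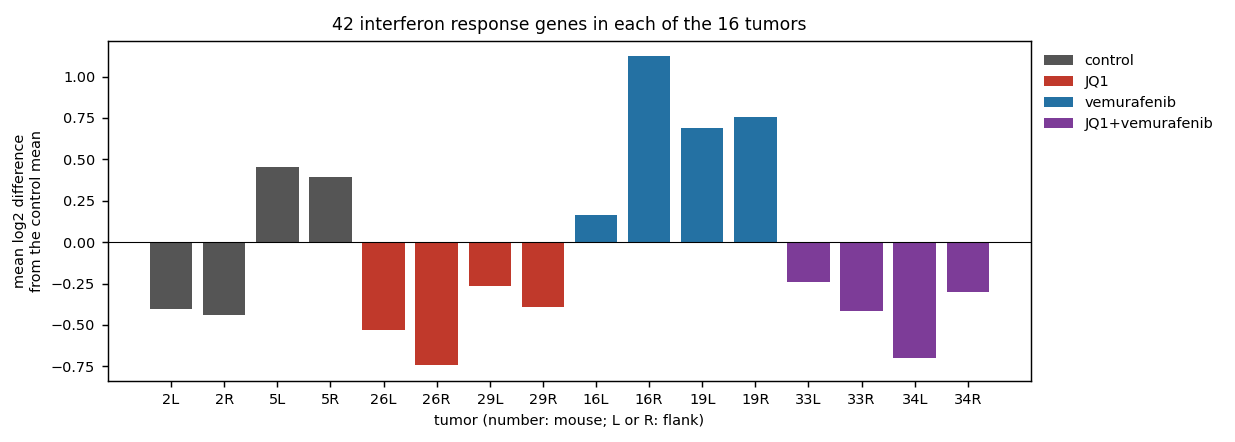
Each bar is 1 tumor and shows log2(FPKM + 0.5) averaged over 42 interferon response genes, relative to the control average. All 4 JQ1 tumors and all 4 tumors of both drugs lie below 0, all 4 Vemurafenib tumors lie above 0, and the control tumors split by mouse.

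The JQ1 differences, those of Vemurafenib and those of both drugs use the same 4 control tumors, so their likeness is no independent evidence. For hypoxia and glycolysis genes the medians were -0.19 with JQ1, -0.23 with Vemurafenib and -0.47 with both. For sterol pathway genes they were -0.20, -0.43 and -0.87, and for G1/S cell cycle genes -0.11, -0.37 and -1.01. For angiogenesis factors they were 0.19, 0.00 and -0.28. Among single genes, MGP differed by 1.46 with JQ1, 0.88 with Vemurafenib and 2.66 with both drugs, and A2M by 1.36, 0.80 with Vemurafenib and 2.47 with both drugs. SLC2A3 differed by -0.60, -0.15 with Vemurafenib and -0.46 with both drugs. The JQ1 effect in the presence of Vemurafenib departed from that in its absence at an adjusted p below 0.05 in 0 genes (0%; limma, interaction term), in 19 without control tumor 5R and in 30 without mouse 5.

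**Figure D5:**
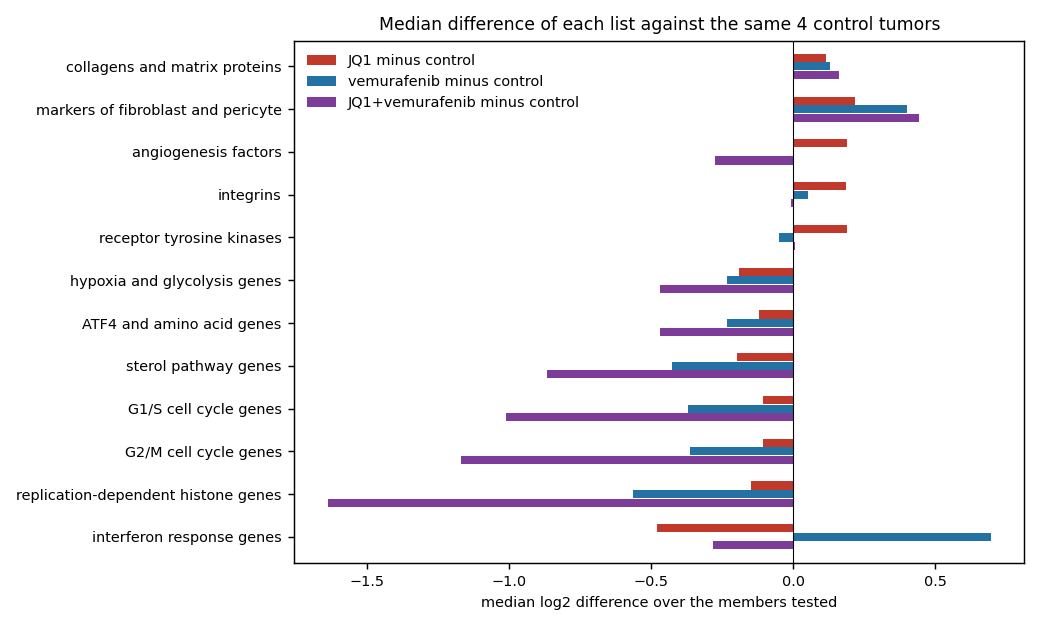
Bars are the median log2 difference over the tested members of 12 lists, for JQ1 (red), Vemurafenib (blue) and both drugs (purple), each against the same 4 control tumors. The JQ1 bars lie between -0.48 and 0.22, and for the cell cycle and histone lists the bars of both drugs are longer.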

How the data were processed

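RNA-seq of 16 A375 tumors was made from rRNA-depleted RNA (RiboZero, ScriptSeq v2). The authors aligned reads to hg19 with TopHat2 and made the deposited FPKM table with Cufflinks; the sources used here do not give versions or any removal of mouse reads. FPKM values carry no read counts, and low values showed no common step between tumors, so reads were not recovered and no counting interval was formed. Log2(FPKM + 0.5) was fitted in limma 3.58.1 (R 4.3.3) over all 16 tumors, with group as the term, a mean-variance trend, mouse as a random block (correlation -0.0685) and Benjamini-Hochberg adjustment over 12848 genes. The study's own test took read counts, which are not analysed here. Genes without overlap had 4 JQ1 tumors all above or below 4 control tumors. Columns of unmapped samples numbered 0.

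The 12 higher and 12 lower genes with the largest difference were named among those with an unadjusted p below 0.01, no overlap and at least 5 FPKM, with short RNAs counted apart. The 3 members of each list with the smallest unadjusted p below 0.05 and a fixed set of genes of the BET response were eligible too, and some of these genes are not reported here. Further list members and the short RNAs were named as examples after their values were seen. The members and lists were chosen with earlier results of these data known. Alternatives were pseudocounts of 0.1 and 1, other filters, 3 scalings, other mouse terms, flank as a term and robust moderation. Each JQ1 or control tumor or mouse was also left out in turn. Gene lengths came from GENCODE on GRCh37 and promoters from RefSeq.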

Additional observations from a re-analysis of the deposited data

Results flagged for a closer look

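In 25 of 308 groups of 4 tumors (values of named genes and list means), 1 tumor lay far from the other 3, where chance would give about 5% of groups. Control tumor 5R was that tumor in 10 of them. Among single genes, 5R was the highest control tumor for A2M at 15.2 FPKM (5.61 to 7.24 in the others), VCAN at 77.5 (57.1 to 60.5), UTS2 at 13.1 (5.52 to 6.81), BAGE4 at 56.9 (39.9 to 41.8) and PDGFRB at 6.0 (2.35 to 2.62). It was also the highest for the elongation factor gene AFF1 at 10 FPKM (7.34 to 7.62) and for BRD3 at 6.22 (3.42 to 3.89). In list means of log2(FPKM + 0.5) relative to the control mean, 5R stood at 0.64 for collagens and matrix proteins (-0.29 to -0.16 in the others), 0.17 for ER chaperones and unfolded protein response and 0.34 for lysosome and autophagy genes.

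Of the other control tumors, 2R was lowest for BCL2A1 at 7.68 FPKM (12.9 to 13.9) and for PIK3R1, a PI3K subunit gene, at 8.37 (10.2 to 10.6), and 5L was lowest for MYC at 4.31 (5.70 to 5.92). Among JQ1 tumors, 26L stood apart for TNNT1 at 4.07 FPKM (3.02 to 3.16), KRT10 at 5.54 (6.33 to 6.48), PDGFRB at 3.87 (5.27 to 5.44), P4HA1 at 64.0 (51.5 to 53.6) and DDR2 at 23.4 (25 to 25.2). In the list means 26L was at -0.054 for elongation and pausing factors and at 0.010 for ribosomal proteins. Tumor 26R stood apart for MGP at 39.3 FPKM (29.7 to 30.8) and SLC7A11 at 7.81 (10.4 to 10.7), and 29R for the splicing gene HNRNPH1 at 274 (282 to 283), EDEM1 at 41.2 (32.5 to 33.8) and BRD3 at 4.75 (4.23 to 4.30).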

How the results depend on the processing

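Depth is unknown, so no counting error can be given, and each group holds 2 mice. Leaving out 1 tumor at a time gave 0 to 113 genes past an adjusted p below 0.05 (main 0), 734 to 2108 past an unadjusted p below 0.05 (main 1093), 844 to 2502 without overlap (main 643), 0 to 107 genes against Vemurafenib (main 39) and 0 to 19 genes in the interaction (main 0). The highest values of the first 3 counts and the last came without control tumor 5R, and 107 came without 2R. Only JQ1 and control tumors and mice were left out. Dependence of the Vemurafenib and interaction counts on the other groups was therefore not tested. With 3 tumors against 4, or 2 against 4, fewer tumors must be ordered, so more genes do not overlap. Without JQ1 mouse 26 there were 639 genes at an unadjusted p, 1591 without overlap and 0 against Vemurafenib, and without JQ1 mouse 29 there were 521, 1377 and 2. Without control mouse 2 there were 1 past the adjustment, 1748 without overlap and 129 against Vemurafenib, and without control mouse 5 there were 83, 3828 and 90, with 1778 at an unadjusted p and 30 in the interaction.

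A mean of at least 5 FPKM left fewer genes to test and gave 685 at an unadjusted p, 422 without overlap and 8 against Vemurafenib. Without a filter 4 genes, and without the mouse block 22 genes, passed against Vemurafenib. With the mean of each mouse, which compares 2 values with 2, 1 gene passed the adjustment, 4910 did not overlap, and 2 passed against Vemurafenib and 2 in the interaction. Upper quartile scaling gave 1 gene past the adjustment. The median of all genes was -0.10 with a common sum and -0.011 with quantile normalization. Where no reason follows from the setting itself, the cause was not tested.

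Signs turned only in genes with small differences. With a common sum LAMP2 was at -0.0012, BRD3 at -0.086, HEXIM1 at -0.096, CDK9 at -0.076, CDKN1A at -0.14, CDK6 at -0.14 and FOSL1 at -0.13. With upper quartile scaling CDKN1A was at -0.021, CDK6 at -0.017 and FOSL1 at -0.0089. With quantile normalization BRD3 was at -0.032, CDKN1A at -0.033 and CDK6 at -0.00043. When 1 tumor was left out, the ranges were -0.17 to 0.043 for BCL2, -0.059 to 0.21 for BRD3, -0.15 to 0.091 for CDK6, -0.082 to 0.16 for CDK9, -0.11 to 0.13 for CDKN1A, -0.097 to 0.20 for FOSL1 and -0.061 to 0.13 for HEXIM1. Without JQ1 mouse 26 CDK6 was at -0.023. Without JQ1 mouse 29 CDK9 was at -0.061, CDKN1A at -0.25, BCL2 at 0.012 and FOSL1 at -0.043. Without control mouse 2 BRD3 was at -0.15, MYC at 0.036, CDKN1A at -0.030 and BCL2 at 0.076, and without control mouse 5 HEXIM1 was at -0.031, CDK6 at -0.14 and FOSL1 at -0.16. Over named genes and alternatives, 2581 values kept their direction and side of the threshold, 34 passed it and 40 turned sign.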

Other observations

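Protocadherins, cell surface proteins of neural cell contact, were looked at after their values were seen. Of 50 tested, 46 were above 0, with a median log2 difference of 0.26 (59.5% and 0.03 for all genes). At an unadjusted p below 0.05, 14 were higher and 1 lower in JQ1 tumors (6.16% and 2.35% of all genes). The groups did not overlap for 6 higher members (3.29% of all genes). Of these 6, 2 passed the filter through the JQ1 tumors alone and had to lie higher in them. Without control tumor 5R, 7 passed an adjusted p below 0.05 in limma. PCDH18 was at 2.03, 2.53, 3.70 and 6.95 FPKM in control tumors and 6.74, 6.70, 7.85 and 6.27 in JQ1 tumors. PCDHB10 differed by 0.69 and PCDH9, which lies outside the clusters, by 0.45, while PCDH15 differed by -0.39. From the same controls, Vemurafenib tumors differed by 0.67 for PCDH18, 0.52 for PCDHB10, 0.49 for PCDH9 and -0.10 for PCDH15. The higher protocadherin values are therefore not read as particular to JQ1. Genes of the clusters share near-identical sequence, so single members are uncertain.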
